A study of Mus musculus with 8 samples.

Results

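MHC class I presentation shows a cell's own peptides to CD8 T cells. Immunoproteasomes cut proteins into peptides, the TAP transporter carries these into the endoplasmic reticulum, chaperones and the aminopeptidase ERAP1 fit them to a heavy chain paired with beta-2 microglobulin, and the complex goes to the surface. In T cells much of this machinery depends on NLRC5, a transactivator that acts through conserved promoter boxes of class I genes, and on interferon-driven factors such as IRF1. The set described here was chosen by gene name: 33 genes of this pathway, of which 26 had a row of their own on the array, among 22180 genes with such a row. The other 7 members (H2-D1, H2-Q2, H2-Q6, H2-Q7, H2-T3, H2-T9 and H2-T22) appeared only in rows that name several genes. Of the classical heavy chains, only H2-K1 therefore had a row of its own. Array probe sequences were not given, so whether the own rows of H2 genes also read their paralogs was not tested.

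The 4 samples of the anti-IL-10R group came from mice given an antibody that blocks the interleukin 10 receptor (IL-10R), and the 4 samples of the isotype group from mice given the matching control antibody. All mice were female; the labels give their strain as C57BL/6 in the protocol and C56BL/6 in another field, and do not give their age. All carried transplanted leukaemia cells from Eµ-TCL1 mice, which carry a TCL1 transgene and serve as a model of chronic lymphocytic leukaemia. Treatment began 3 weeks after transplantation and RNA was taken at 5 weeks. PD-1hi effector CD8 T cells (Lin-, TCRb+, CD8+, CD127 low, CD44 intermediate to high) were sorted from spleen and measured on 1 array per sample. Whether every array stands for a separate mouse is not stated in the labels, and the p-values then measure only array-to-array spread, which may be technical.

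Values are log2 signals. Each difference is the mean of the 4 anti-IL-10R arrays less that of the 4 isotype arrays, so that a positive one means higher in the anti-IL-10R group. All 8 CD8 T cell markers were above the limit for dim genes (a mean of 5.24), with a mean per array of 11.74 to 11.80 in anti-IL-10R arrays and 11.45 to 11.71 in isotype arrays. Of these 8, 6 were higher in the anti-IL-10R group, 5 of them at an unadjusted p below 0.05, and 2 were lower, 1 of them at that level. Over all tested genes, 11.5% were higher and 8.53% lower at that level. None of the 8 passed over all genes (limma), and their median difference was 0.25. Of 11 measured B cell markers, 7 lay below that limit. The 4 above it were all lower in the anti-IL-10R group, but with overlapping groups and none at an unadjusted p below 0.05 (limma). The mean over the list ran at 4.86 to 5.03 in anti-IL-10R arrays and 4.86 to 5.46 in isotype arrays. The mean over 8 macrophage markers (4 below the limit) lay at 4.91 to 5.15 in anti-IL-10R arrays and 4.94 to 5.33 in isotype arrays. The mean over 9 MHC class II genes (1 below the limit) lay at 6.14 to 6.26 in anti-IL-10R arrays and 6.17 to 6.66 in isotype arrays. The mean over 3 CD4 T cell markers (2 below the limit) lay at 4.73 to 5.13 in anti-IL-10R arrays and 4.87 to 5.90 in isotype arrays. For 4 NK cell markers (3 below the limit) these ranges were 5.92 to 6.04 and 5.76 to 6.28. For 5 dendritic cell markers (2 below the limit) they were 5.29 to 5.46 and 5.34 to 5.53. Isotype replicate 1 was the highest isotype array for the macrophage, CD4 and NK lists. It was the lowest for the dendritic list and neither for the B cell and class II lists. In a fit that takes the B cell list's mean as a covariate, the median difference of the tested members was 0.25, against 0.24 without it, and 0 members passed (limma), against 2; the part of the other cell types was not tested. Fewer cells of a type cannot be told apart from less RNA per cell. Isotype replicate 1 stood apart: its correlation with the other arrays across genes was 0.915 to 0.929, against 0.962 to 0.986 among the other 7, and its mean over the 12019 tested genes was 7.21, against 7.38 to 7.45 in the others. Most member differences are given with and without it below, while those of several pathway list genes, such as Irf1 and Psmb5, are given only with all 8 arrays.

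The promoters of several members hold the letters of the boxes through which class I genes are known to be regulated. The 250 bases upstream of the annotated start are shown for 5 members, a classical and a pair of non-classical heavy chains, the light chain and a transporter chain, to show the boxes in genes of different roles, 5′ to 3′ on the gene's strand, from RefSeq on GRCm38.p6. Capitals mark the letters of 4 motifs on either strand: TGACG (the core of the X2 box), ATTGG (the Y box, an inverted CCAAT), GGGGATTCC (the NF-kappaB site of enhancer A) and GAAA, any 2 bases, then GAAA (the core of the interferon-stimulated response element). The H2-K1 stretch is chr17:34000348-34000597 on the minus strand, and that of B2m is chr2:122147437-122147686 on the plus strand. H2-M3 is at chr17:37269984-37270233 on the plus strand, H2-T23 at chr17:36032702-36032951 on the minus strand and Tap1 at chr17:34187306-34187555 on the plus strand.
H2-K1: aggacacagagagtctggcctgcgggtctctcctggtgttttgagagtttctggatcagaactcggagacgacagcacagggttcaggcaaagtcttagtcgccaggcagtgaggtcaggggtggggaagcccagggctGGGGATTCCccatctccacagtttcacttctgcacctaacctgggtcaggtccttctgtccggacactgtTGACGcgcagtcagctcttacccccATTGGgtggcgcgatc
B2m: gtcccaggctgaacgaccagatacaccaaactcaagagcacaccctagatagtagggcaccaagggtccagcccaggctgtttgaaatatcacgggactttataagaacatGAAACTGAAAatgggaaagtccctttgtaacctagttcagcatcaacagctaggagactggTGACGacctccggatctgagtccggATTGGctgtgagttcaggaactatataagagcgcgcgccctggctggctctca
H2-M3: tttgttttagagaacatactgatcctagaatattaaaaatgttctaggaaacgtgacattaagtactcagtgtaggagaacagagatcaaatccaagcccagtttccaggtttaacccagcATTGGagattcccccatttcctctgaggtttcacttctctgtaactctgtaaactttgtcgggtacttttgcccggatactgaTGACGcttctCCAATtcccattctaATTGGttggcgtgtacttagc
H2-T23: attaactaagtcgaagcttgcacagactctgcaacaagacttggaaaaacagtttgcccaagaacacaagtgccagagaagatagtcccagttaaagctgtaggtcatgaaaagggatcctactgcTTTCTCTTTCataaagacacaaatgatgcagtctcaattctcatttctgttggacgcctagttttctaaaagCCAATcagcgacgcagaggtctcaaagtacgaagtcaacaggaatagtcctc
Tap1: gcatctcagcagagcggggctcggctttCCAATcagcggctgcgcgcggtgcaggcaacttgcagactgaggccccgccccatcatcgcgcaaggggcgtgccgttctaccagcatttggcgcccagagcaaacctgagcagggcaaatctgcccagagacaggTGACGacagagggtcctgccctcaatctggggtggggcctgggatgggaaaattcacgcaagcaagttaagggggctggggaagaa

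In H2-K1, B2m and H2-M3, TGACG was followed by ATTGG after exactly 20 bases. Counting a spacing of 10 to 30 bases on either strand, the pair was present in 5 of the 23 members with a promoter record (Nlrc5 and H2-Q5 are among the 10 with none in the table used), the other two being H2-D1 (20 bases) and H2-Q7 (19 bases), and in 0.642% of all 32851 promoter records. GGGGATTCC was present in H2-K1, H2-D1, H2-Q6 and H2-Q7 (0.213% of all records), and the interferon-stimulated response element core in B2m, H2-T23 and H2-T22 (2.98%). ATTGG alone is common (33.8% of all records) and was found in 14 members, and TGACG (17.8%) in 11. Tap1 and Psmb9, neighbours on opposite strands, share promoter sequence: 275 bases of the 300-base windows around their starts are the same DNA. A match describes letters in this window and does not show that a factor binds there.

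**Figure D1:**
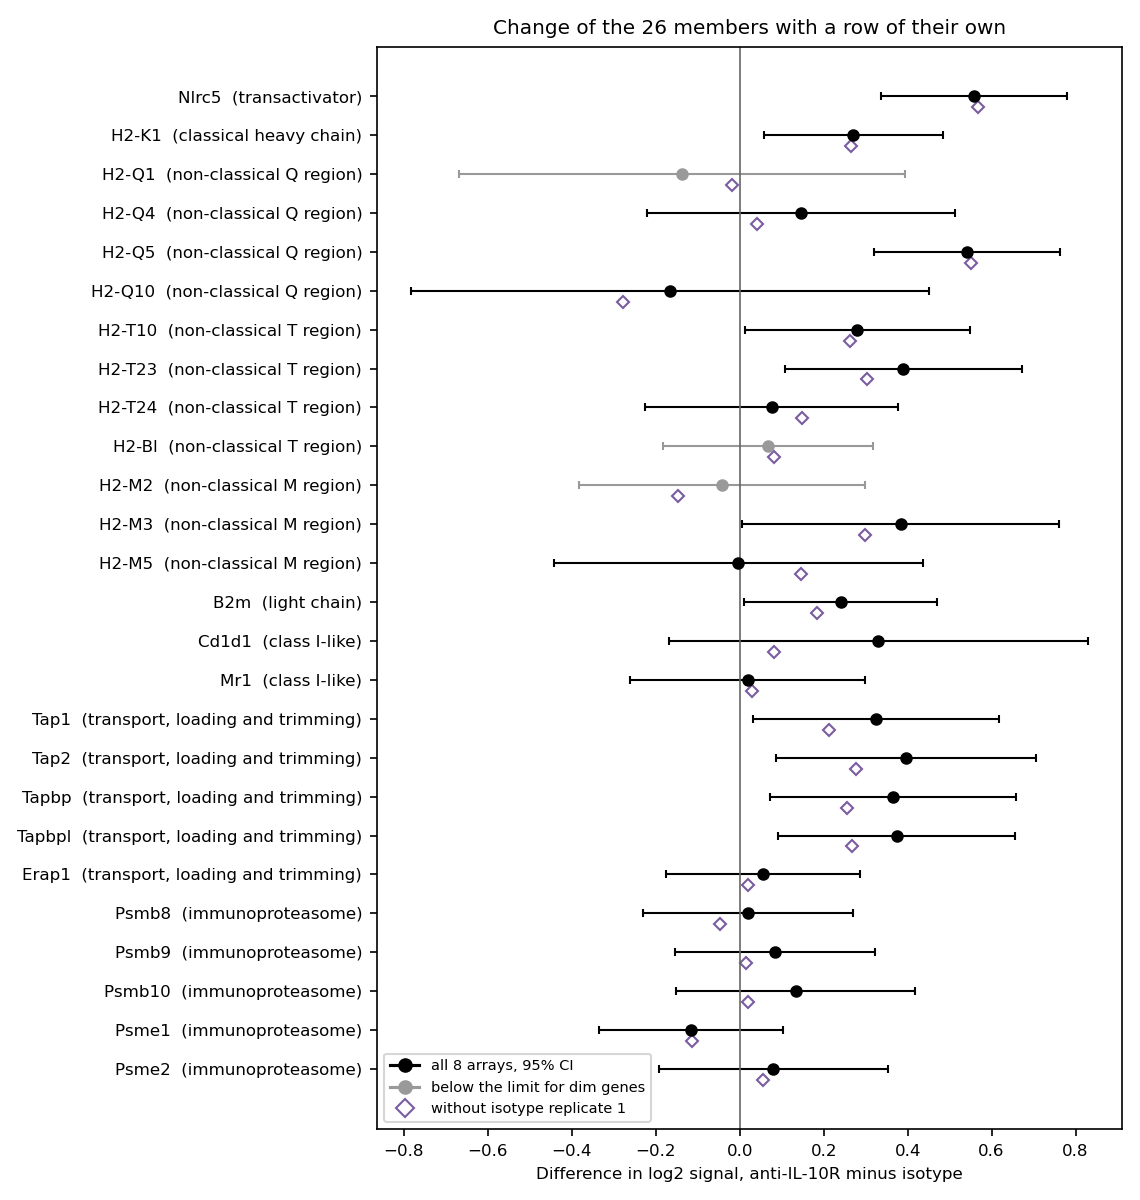
Difference in log2 signal (anti-IL-10R minus isotype, x axis) of the 26 members with a row of their own, grouped by role (y axis). Points with bars are the differences with limma's 95% interval over 8 arrays (grey where the gene is below the limit for dim genes), and open diamonds are the differences without isotype replicate 1. Nlrc5 and H2-Q5 lie farthest to the right at 0.56 and 0.54, and the 5 immunoproteasome members lie between −0.12 and 0.13.

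In the anti-IL-10R group Nlrc5 and the row of H2-Q5 rose, and the immunoproteasome genes stayed within a narrow range around 0. Most other class I and loading members were higher without passing the test, by up to 0.40 in the brightest row naming each alone. Some other heavy-chain rows, described below, differed by more, up to 0.59. Of the 26 members, 23 were above the limit for dim genes and were tested among 12019 genes. Of these, 2 rose (limma, Benjamini-Hochberg adjusted p below 0.05), where 1.23% of all tested genes rose, and 0 fell, where 1.30% of all did. At an unadjusted p below 0.05, 11 were higher and 0 lower, against 11.5% and 8.53% of all tested genes. A positive difference was seen in 20 of the 23, against 54.7% of all tested genes, and in 17 and 18 of them after quantile normalization and array centring. The median difference over the 23 was 0.24, and over all tested genes 0.03.

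Without isotype replicate 1 the median difference of the members was smaller. The same 2 members rose and 0 fell, where 3.35% and 5.90% of all tested genes did. At an unadjusted p below 0.05, 8 were higher and 0 lower, against 11.9% and 15.5%. A positive difference was again seen in 20, against 48.9% of all tested genes. That median was 0.15, and over all tested genes −0.01.

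**Figure D2:**
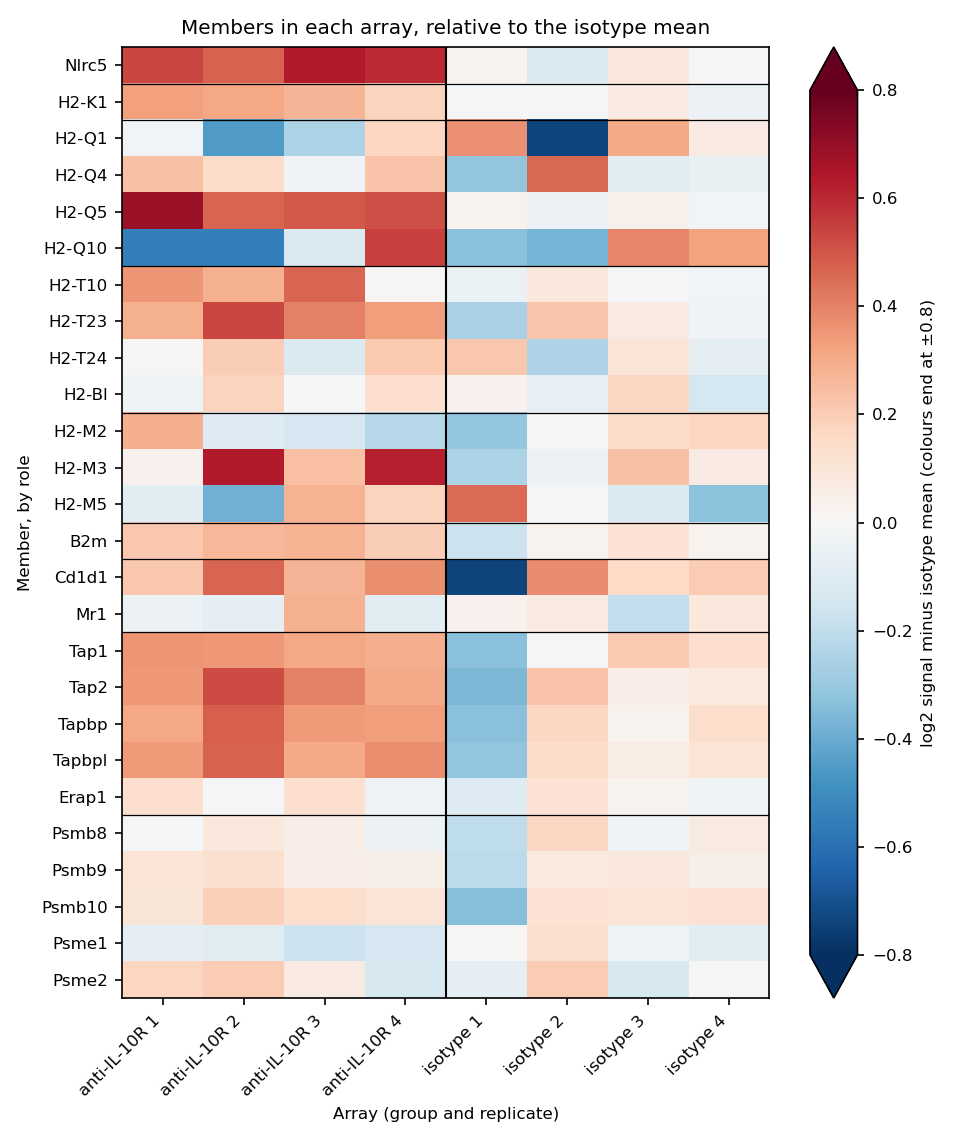
Log2 signal of each of the 26 members (rows, by role) in each array (columns, anti-IL-10R left of isotype), minus the member's isotype mean. Red is higher and blue lower; colours end at ±0.8. The rows of Nlrc5, H2-K1, H2-Q5, H2-T23, B2m, Tap1, Tap2, Tapbp and Tapbpl are redder in all 4 anti-IL-10R columns than in any isotype column, and isotype replicate 1 is the bluest column in the loading genes.

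Nlrc5, the transactivator of class I genes, had signals of 10.16, 10.10, 10.26 and 10.22 in the anti-IL-10R arrays, against 9.65, 9.51, 9.71 and 9.63 in the isotype arrays. The groups did not overlap, and the lowest anti-IL-10R array lay well above the highest isotype array. The difference was 0.56 ± 0.10 (SE, limma adjusted p = 0.03), a 1.47-fold higher signal (95% CI 1.26 to 1.72). The size varied little with the arrays used, from 0.52 without isotype replicate 2 to 0.59 without anti-IL-10R replicate 2. The call held without isotype replicate 1 (adjusted p = 0.0108) and was lost without any one of the other 7 arrays, that is isotype replicates 2, 3 and 4 and anti-IL-10R replicates 1 to 4 (adjusted p 0.0632 to 0.115). It was also lost with array centring (adjusted p = 0.052), with the B cell covariate (0.108), with the replicate number as a block (0.115) and in the fit over all rows (0.0559).

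Among the factors that bind class I promoters, none of 10 tested genes passed (limma), with 8 higher, 2 lower and a median difference of 0.18. At an unadjusted p below 0.05, 2 were higher and 1 lower, against 11.5% and 8.53% of all tested genes. Without isotype replicate 1, 6 of the 10 were higher and 4 lower, with a median of 0.08. Irf1, the interferon-induced activator, averaged 8.49 ± 0.13 in the anti-IL-10R and 8.04 ± 0.17 in the isotype arrays, a difference of 0.45 ± 0.12 (SE, limma adjusted p = 0.0834). Nfyb, a subunit of the NF-Y complex that binds the Y box, differed by −0.38 ± 0.12 (adjusted p = 0.131), and fell by 0.44 without isotype replicate 1 (adjusted p = 0.0461). Rfx5, a subunit of the X box factor RFX named here because it was the other gene called without that array, differed by 0.41 ± 0.19 (adjusted p = 0.267) and by 0.56 without it (adjusted p = 0.0499). Without that array 3.35% of all tested genes rose and 5.90% fell. In interferon gamma signalling, none of 9 tested genes passed (limma, 1 higher at an unadjusted p below 0.05), with 7 higher, 2 lower and a median of 0.16. Without isotype replicate 1 there were 6 higher, 3 lower and a median of 0.07. The 2 lower with all 8 arrays were Irf8 (−0.10 ± 0.12) and the cytokine gene Ifng itself (−0.26 ± 0.14, and −0.33 without isotype replicate 1). Jak1, a kinase of the interferon receptors, differed by 0.29 ± 0.10 (adjusted p = 0.141) and Jak2 by 0.23 ± 0.11.

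**Figure D3:**
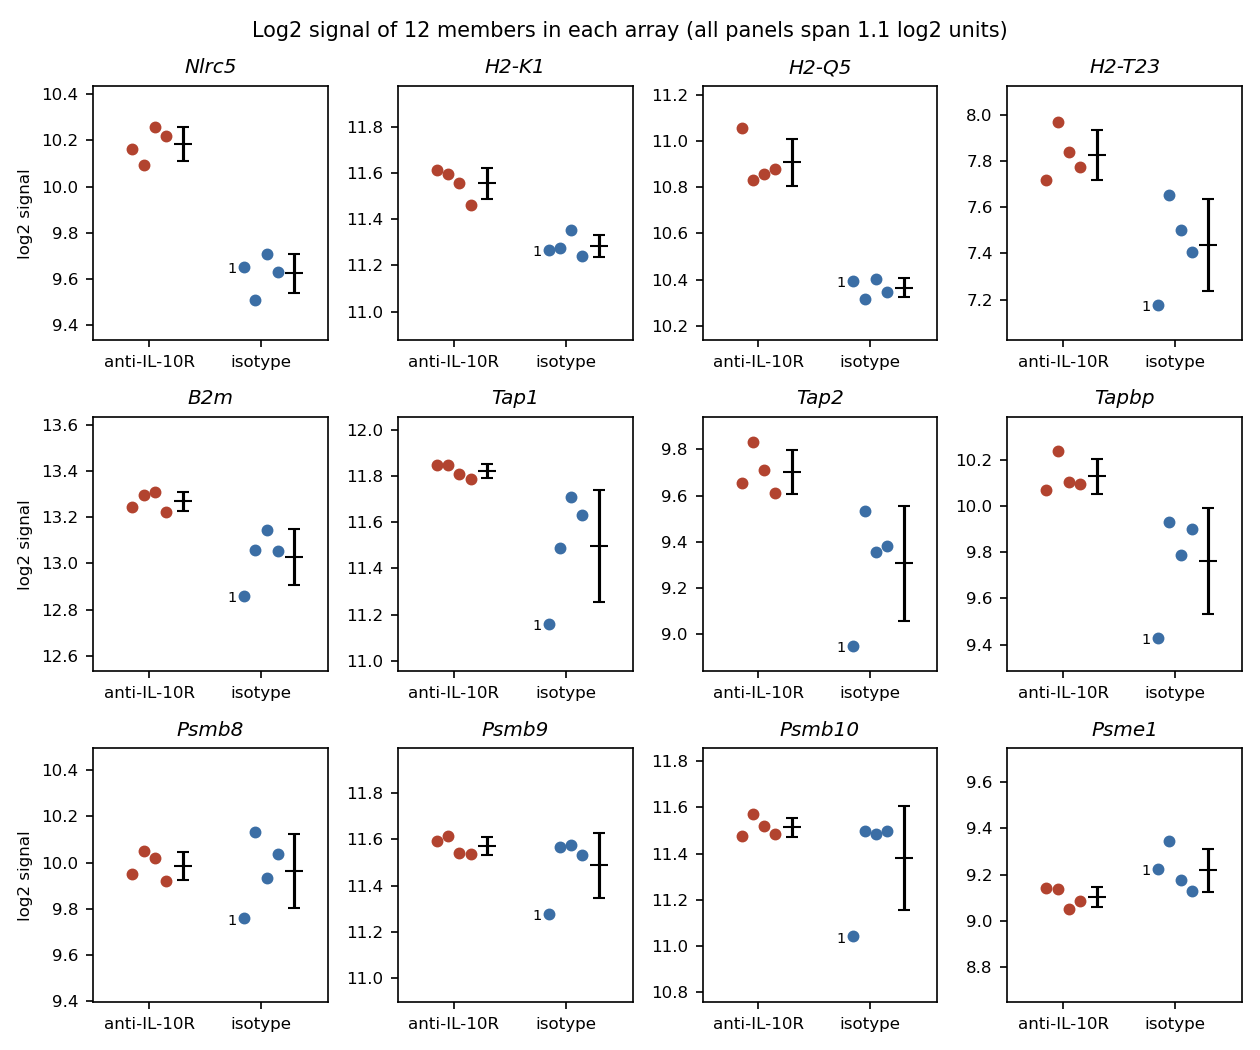
Log2 signal (y axis) of 12 members in each array, with anti-IL-10R (red) left of isotype (blue), bars at the group mean ± SD (n = 4 each) and isotype replicate 1 marked with a 1; every panel spans the same number of log2 units. The groups are apart for Nlrc5, H2-K1, H2-Q5, H2-T23, B2m, Tap1, Tap2 and Tapbp and overlap for Psmb8, Psmb9, Psmb10 and Psme1.

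The classical heavy chain H2-K1, which presents peptides to CD8 T cells, had 11.61, 11.59, 11.56 and 11.46 in the anti-IL-10R arrays, against 11.27, 11.28, 11.35 and 11.24 in the isotype arrays. Every anti-IL-10R array was higher than every isotype array. The difference of 0.27 ± 0.09 (SE), or 1.21-fold (95% CI 1.04 to 1.40), did not pass over all genes (limma adjusted p = 0.153) and was the same size without isotype replicate 1 (0.27, adjusted p = 0.0966). B2m, the light chain of every class I molecule, had 13.25, 13.30, 13.31 and 13.22 in the anti-IL-10R arrays, against 12.86, 13.06, 13.14 and 13.05 in the isotype arrays. Its groups did not overlap either, with isotype replicate 1 the lowest array. It differed by 0.24 ± 0.10 (adjusted p = 0.23), and by 0.18 without that array. In all, 9 tested members had groups that did not overlap with the anti-IL-10R arrays higher, where 9.32% of all tested genes did, and 0 had the anti-IL-10R arrays lower, where 5.99% did. Without isotype replicate 1 the count was again 9, against 11.3% of all tested genes higher and 14.2% lower.

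The non-classical heavy chains were mixed. Of the 8 tested, 6 were higher and 2 lower, with a median of 0.21 and a range of −0.17 to 0.54 (5 higher and 3 lower after quantile normalization). H2-Q5 had 11.06, 10.83, 10.86 and 10.88 in the anti-IL-10R arrays, against 10.40, 10.32, 10.40 and 10.35 in the isotype arrays. The groups were far apart relative to the spread in each. It rose by 0.54 ± 0.10 (SE, limma adjusted p = 0.0331), which is 1.46-fold (95% CI 1.25 to 1.70). As for Nlrc5, the call held without isotype replicate 1 (adjusted p = 0.0117) and was lost without any one of the other 7 arrays (isotype replicates 2, 3 and 4 and anti-IL-10R replicates 1 to 4, adjusted p 0.0737 to 0.111). It was also lost with array centring (adjusted p = 0.06), the B cell covariate (0.149), the replicate block (0.123) and the fit over all rows (0.0591). RefSeq on GRCm38.p6 lists H2-Q5 as a transcribed pseudogene, and H2-T10 and H2-Bl likewise, and how far the row also reads other Q region genes was not tested.

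H2-T23, which encodes the Qa-1 molecule read by the NKG2A receptor, had 7.72, 7.97, 7.84 and 7.77 in the anti-IL-10R arrays, against 7.18, 7.65, 7.50 and 7.41 in the isotype arrays. The groups did not overlap, by a narrow margin. The difference was 0.39 ± 0.13 (SE, limma adjusted p = 0.127), and 0.30 without isotype replicate 1. H2-M3, which presents N-formylated peptides, had 8.70, 9.31, 8.91 and 9.30 in the anti-IL-10R arrays, against 8.41, 8.62, 8.91 and 8.74 in the isotype arrays. Here the groups overlapped, since anti-IL-10R replicate 1 lay below isotype replicates 3 and 4. The difference was 0.38 ± 0.17 (adjusted p = 0.243), with 0.30 without isotype replicate 1 and a range of 0.30 to 0.50 over the 8 fits that each leave out 1 array. H2-T10 differed by 0.28 ± 0.12, H2-Q4 by 0.15 ± 0.16 and H2-T24 by 0.08 ± 0.13, all with overlapping groups. Without isotype replicate 1 these were 0.26, 0.04 and 0.15, and without isotype replicate 2 they were 0.31, 0.30 and −0.01, so the sizes for H2-Q4 and H2-T24 rest on single arrays. H2-Q10, known as a secreted product of the liver, differed by −0.17 ± 0.28 and had the largest standard error of the tested members, with values of 7.43 to 8.53 among the anti-IL-10R arrays and 7.61 to 8.37 among the isotype arrays (−0.28 without isotype replicate 1). H2-M5 differed by −0.004 ± 0.20, and by 0.15 without isotype replicate 1. H2-Q1, H2-M2 and H2-Bl lay below the limit for dim genes, with differences of −0.14, −0.04 and 0.07.

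Set beside these, the difference of H2-K1 was about as large as the non-classical genes' mean difference. H2-K1 minus the mean of the 8 non-classical genes was 3.67, 3.61, 3.53 and 3.31 in the anti-IL-10R arrays, against 3.51, 3.45, 3.45 and 3.44 in the isotype arrays. The groups overlapped through anti-IL-10R replicate 4, the lowest of all arrays. The difference of H2-K1 exceeded their mean difference by 0.07, less than the SD of 0.16 among the anti-IL-10R arrays. With 1 array left out the excess was 0.02 (without anti-IL-10R replicate 1) to 0.14 (without anti-IL-10R replicate 4); a stricter filter on dim genes gave 0.009. As a description of 1 gene against 8, this carries no test.

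**Figure D4:**
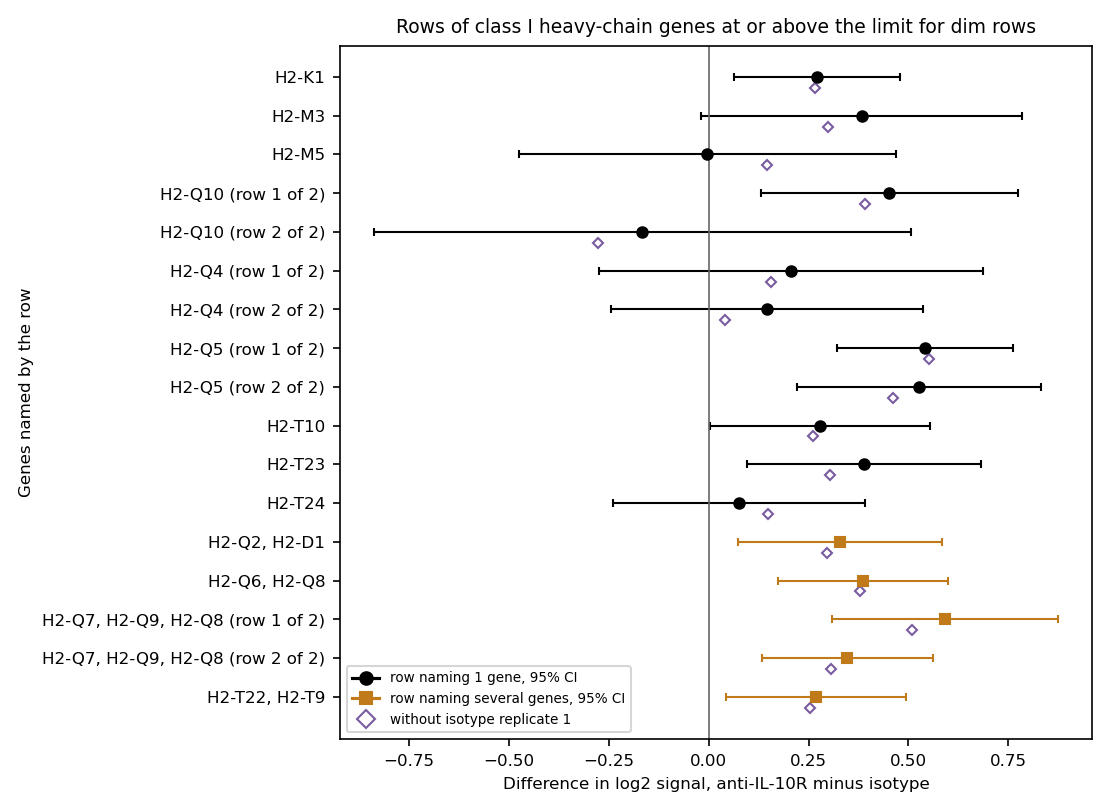
Difference in log2 signal (x axis) for the 17 rows of class I heavy-chain genes at or above the limit for dim rows (y axis, by the genes each row names). Black circles are rows naming 1 gene, orange squares rows naming several, bars limma's 95% interval over all rows of the table, and open diamonds the differences without isotype replicate 1. All 5 shared rows lie between 0.27 and 0.59, while the rows of H2-Q10 lie on both sides of 0.

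Rows that name several heavy-chain genes cannot be assigned to any of them, but they show where paralogs were read together. There were 6 such rows, and 5 lay above the limit. The row shared by H2-Q2 and H2-D1 had 6.83, 6.87, 6.96 and 6.72 in the anti-IL-10R arrays, against 6.42, 6.37, 6.66 and 6.62 in the isotype arrays. It differed by 0.33 ± 0.11 (SE, limma adjusted p = 0.18 over 20673 rows). The rows shared by H2-Q7, H2-Q8 and H2-Q9, the genes of the Qa-2 molecule and its copies, differed by 0.59 ± 0.12 and 0.35 ± 0.09, the row of H2-Q6 and H2-Q8 by 0.39 ± 0.09, and that of H2-T22 and H2-T9 by 0.27 ± 0.10. All 5 had groups that did not overlap, as did 10 of the 17 heavy-chain rows, where 8.83% of all rows did so with the anti-IL-10R arrays higher. None of the 17 passed over all rows (limma), where 0.276% were called higher and 0.223% lower. At an unadjusted p below 0.05 there were 11, against 3811 of all 20673 rows. How far these rows read the same transcripts was not tested. Without isotype replicate 1, 2 passed (1.26% of all rows), the brighter row of H2-Q5 (adjusted p = 0.0363) and the dimmer one of H2-Q7, H2-Q8 and H2-Q9 (adjusted p = 0.0464). Nlrc5 passed there as well (adjusted p = 0.0352). The row of H2-T3 and H2-T18 was below the limit.

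Where a member had several rows of its own, these did not always run together. Both rows of H2-Q5 moved alike, by 0.54 and 0.53. The rows of H2-Q4 differed by 0.15 and 0.21. H2-Q10 had a second, dimmer row with 8.17, 7.71, 7.87 and 7.87 in the anti-IL-10R arrays, against 7.27, 7.35, 7.69 and 7.49 in the isotype arrays. That row was higher by 0.45 ± 0.14 (SE, limma adjusted p = 0.154 over all rows) with groups that did not overlap, whereas the brighter row gave −0.17. Tapbp likewise had a dimmer row, with a difference of −0.07 ± 0.17, beside the brighter row described next, and a row it shares with Zbtb22 differed by 0.01 ± 0.15. Of Psme2, a row shared with a pair of other genes differed by 0.13 ± 0.14 and its own row by 0.08 ± 0.12.

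The transport and loading genes among the members were higher together, most clearly against isotype replicate 1. Tap1, a chain of the peptide transporter, had 11.85, 11.85, 11.81 and 11.79 in the anti-IL-10R arrays, against 11.16, 11.49, 11.71 and 11.63 in the isotype arrays. Its partner chain Tap2 had 9.66, 9.83, 9.71 and 9.61 in the anti-IL-10R arrays, against 8.95, 9.54, 9.36 and 9.38 in the isotype arrays. In both, every anti-IL-10R array was above every isotype array, and the isotype arrays spread much more. Tap1 differed by 0.32 ± 0.13 (SE, limma adjusted p = 0.207) and by 0.21 without isotype replicate 1, and Tap2 by 0.40 ± 0.14 (adjusted p = 0.153) and by 0.28 without it. Tapbp encodes tapasin, which bridges TAP and the heavy chain, and Tapbpl a related peptide editor. They differed by 0.36 ± 0.13 and 0.37 ± 0.13 (adjusted p = 0.161 and 0.139), and by 0.25 and 0.27 without isotype replicate 1, with no overlap between groups. Erap1, the trimming aminopeptidase, differed by 0.06 ± 0.10 (95% CI −0.18 to 0.29), and by 0.02 without isotype replicate 1, with overlapping groups. Over the 5 genes, 5 were higher, none passed, and the median was 0.36, or 0.25 without isotype replicate 1. At an unadjusted p below 0.05, 4 were higher, where 11.5% of all tested genes were.

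A separate list of peptide loading chaperones and translocon subunits of the endoplasmic reticulum was mostly lower. Of 10 tested, 1 was higher and 9 lower, none passed (limma; also none at an unadjusted p below 0.05), and the median was −0.12, or −0.19 with all 10 lower without isotype replicate 1. Without that array 1 of them fell, where 5.90% of all tested genes did: P4hb, a protein disulfide isomerase (−0.47, adjusted p = 0.0398). Calr, or calreticulin, which holds empty heavy chains, averaged 10.12 ± 0.12 in the anti-IL-10R and 10.35 ± 0.09 in the isotype arrays (SD, n = 4 each), a difference of −0.23 ± 0.11 (SE, adjusted p = 0.271). Sec61b, a translocon subunit, differed by −0.31 ± 0.14 (adjusted p = 0.257). Of 7 other peptidases tested, none passed. At an unadjusted p below 0.05, 2 were lower, where 8.53% of all tested genes were. Of the 7, 3 were higher and 4 lower, with a median of −0.20, or 2 higher, 5 lower and −0.37 without isotype replicate 1. Among them Blmh, bleomycin hydrolase, differed by −0.41 ± 0.11 (adjusted p = 0.0835) and Lap3, leucine aminopeptidase, by −0.55 ± 0.18 (adjusted p = 0.137). Without isotype replicate 1, where 5.90% of all tested genes fell, 3 of the 7 did, Lap3, Thop1 and Prep (−0.66, −0.77 and −0.37, adjusted p = 0.0412, 0.00625 and 0.0466).

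The immunoproteasome had the smallest median difference of the role groups, 0.08, and 0.01 without isotype replicate 1 (2 of 5 genes lower there and under both scalings). Psmb8, its chymotrypsin-like catalytic subunit, had 9.95, 10.05, 10.02 and 9.92 in the anti-IL-10R arrays, against 9.76, 10.13, 9.93 and 10.04 in the isotype arrays. Psmb9 had 11.60, 11.61, 11.54 and 11.54 in the anti-IL-10R arrays, against 11.28, 11.57, 11.58 and 11.53 in the isotype arrays. In both, the anti-IL-10R arrays lay within or close to the range of isotype replicates 2, 3 and 4. Psmb8 differed by 0.02 ± 0.11 (SE, 95% CI −0.23 to 0.27) and Psmb9 by 0.08 ± 0.11 (95% CI −0.15 to 0.32), or by −0.05 and 0.01 without isotype replicate 1. Psmb10, the third catalytic subunit, differed by 0.13 ± 0.13 and by 0.02 without isotype replicate 1. The subunits of the PA28 activator, Psme1 and Psme2, differed by −0.12 ± 0.10 and 0.08 ± 0.12, or by −0.11 and 0.06 without that array. The groups overlapped for all 5, none passed (limma adjusted p 0.556 to 0.942), none had an unadjusted p below 0.05, and the intervals leave room for changes of up to 0.42 upward and 0.34 downward.

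Tap1 and Psmb9 illustrate how loading genes and immunoproteasome subunits stood side by side. They share promoter sequence, as given above, and Tap1 differed by 0.32 ± 0.13 (SE) and Psmb9 by 0.08 ± 0.11. Without isotype replicate 1 these were 0.21 ± 0.09 and 0.01 ± 0.09. The pair was set side by side after its values were seen, its 95% intervals overlap (0.03 to 0.62 and −0.15 to 0.32), and the difference between the pair was not tested.

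The list of constitutive proteasome genes leaned lower. It holds the subunits that the immunoproteasome ones replace (Psmb5, Psmb6 and Psmb7), the activators Psme3 and Psme4, the inhibitor Psmf1 and the assembly factor Pomp. All 7 had negative differences (6 of 7 without isotype replicate 1), from −0.01 for Psme4 to −0.31 for Psmb5. Of all 12019 tested genes, 5439 had negative ones. None of the 7 passed (limma), and the median was −0.25. At an unadjusted p below 0.05, 3 were lower, where 8.53% of all tested genes were. Psmb5, which Psmb8 replaces in the immunoproteasome, averaged 11.29 ± 0.05 in the anti-IL-10R and 11.61 ± 0.23 in the isotype arrays (SD, n = 4 each), a difference of −0.31 ± 0.13 (SE, adjusted p = 0.215). Psme3, the nuclear activator subunit, differed by −0.29 ± 0.11 (adjusted p = 0.195). Whether these differences part from those of the immunoproteasome genes was not tested.

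The class I-like molecules did not separate the groups. Cd1d1, which presents lipids to NKT cells, had 7.09, 7.34, 7.15 and 7.25 in the anti-IL-10R arrays, against 6.13, 7.26, 7.04 and 7.08 in the isotype arrays. Isotype replicate 1 was about 1 unit below every other array, and the groups overlapped. The difference of 0.33 ± 0.22 (SE, limma adjusted p = 0.451) was 0.08 without it. Mr1, which presents vitamin B metabolites to MAIT cells, differed by 0.02 ± 0.13 (95% CI −0.26 to 0.30).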

How the data were processed

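Per the labels' protocols, RNA was hybridised to GeneChip Mouse Gene 2.0 ST arrays. The authors deposited log2 values, 1 per transcript cluster (row) and array; the submitters' processing notes name Affymetrix Power Tools, and its version, summarisation and normalization were not given in the sources used here. Of 41345 rows, 23521 name 1 gene, 1814 several and 16010 none in the platform annotation. The brightest row per gene over the 8 arrays was kept, and the 12019 genes whose mean reached 5.24 (the median over rows) were tested with limma 3.58.1 in R 4.3.3 (lmFit, eBayes, two-sided, Benjamini-Hochberg, threshold 0.05). A check on simulated data came first. It recovered 23.9% of genes changed by a log2 size of 0.5, 82.1% at 1 and 100% at 2, and 6.80% of its calls were false. All members were named, and of each pathway list the genes past the threshold or otherwise the 2 with the smallest p. Outside that rule, P4hb, Rfx5, Thop1, Prep, Ifng, Irf8 and Psme4 were given with values after these were seen. Members and lists were chosen with earlier results of these data known. Alternatives covered filters, scaling, row choice, variance models, a replicate block, a B cell covariate and each array left out; the fit over all rows was added after seeing the data. Precision rests on 4 arrays per group.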

Additional observations from a re-analysis of the deposited data

Results flagged for a closer look

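Dixon's ratio (a sample's gap to its nearest neighbour over the range of its group) passed its 95% critical value for 4 samples in 3 of the 52 groups tested, where chance gives about 1 in 20. For Mr1 the ratio was 0.899 in the anti-IL-10R group, where replicate 3 had 8.35 and the next array 8.02. For Psmb10 it was 0.968 in the isotype group, where replicate 1 had 11.04 and the next array 11.48. For Psmb9 it was 0.853 in the same group, where replicate 1 had 11.28 and the next array 11.53. Isotype replicate 1 is the array that also correlated least with the others.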

How the results depend on the processing

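Across the alternatives run, every tested member kept its sign except H2-Q4, H2-Q10, H2-T24, H2-M5, Mr1, Erap1, Psmb8 and Psme2, none of which was called in any. The calls of Nlrc5 and H2-Q5 held with no filter, a stricter filter, quantile normalization, the mean of all rows, a trended and robust variance and array weights, and H2-K1 joined them with the trended and robust variance (adjusted p = 0.0387). The count of members called was 0 (limma) with array centring, the replicate block, the B cell marker covariate and the fit over all rows. At an unadjusted p below 0.05 there were then 4, 7, 4 and 10 members. In all, 2108, 2135 and 1722 of 12019 genes and 3811 of 20673 rows were at that level. The difference of Nlrc5 was then 0.51, 0.56, 0.64 and 0.56. With 1 array left out the count of members called was 0 to 2. Over all genes 304 changed (148 higher). The count was 145 with no filter, 460 with the stricter filter, 631 (204 higher) with quantile normalization, 117 (42 higher) with array centring, 1469 with array weights, 4 with the replicate block, 3 with the B cell covariate, 103 over all rows, 896 at a threshold of 0.10, and 3 to 1112 with 1 array left out. The deviations of same-numbered arrays from their group means correlated at −0.05, 0.12, 0.02 and −0.16, and 1 of 4 anti-IL-10R arrays correlated best with its own number. No shared effect of the number shows in these values. They cannot decide whether the numbers pair the samples, which the labels do not state. The cause of the shifts in the counts was not tested. The median of all genes moved by less than 0.1 under each scaling.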
